A study of Danio rerio with 2 samples.

Results

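The genes described here encode the mitochondrial carriers of the slc25 family and the uncoupling proteins, which belong to the same family. Members were all rows of the count table whose symbol starts with slc25a or ucp followed by a digit, 61 of 32057 genes. Each symbol stood for 1 gene, except slc25a29, which stood for 2 Ensembl genes. RNA came from dissected zebrafish (Danio rerio) hearts at 96 hours post fertilisation and gave 2 sequencing libraries, one of the foxc1a nju18 genotype and one of wild-type TU, a laboratory strain. foxc1a encodes a forkhead transcription factor. What the nju18 allele does to the protein, whether the fish were homozygous and how many hearts were pooled are not given in the sources used here. Of the 61 members, 56 had 10 or more reads in at least one library, and 5 had fewer than 10 in both and are treated as undetected.

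Mitochondrial carriers are nuclear-encoded proteins of the inner mitochondrial membrane. They exchange ADP for ATP, import phosphate, and move the acids, amino acids, nucleotides and cofactors that join metabolism in the matrix to that of the cytosol. Uncoupling proteins are relatives that, in mammals, can let protons back into the matrix without ATP synthesis. The heart depends on this traffic because it draws most of its ATP from oxidative phosphorylation.

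The libraries held 17467109 reads (foxc1a nju18) and 20049851 reads (wild type) counted to genes. With 1 library per genotype no difference below has a replicate check, no test was made, and "higher" and "lower" describe these libraries only. foxc1a itself was present in both (50.5 CPM in foxc1a nju18, 28.4 CPM in wild type), so its level does not check the labels. Values set between libraries are CPM, that is reads scaled to a common library size with TMM factors, and a ratio is foxc1a nju18 over wild type with a 95% counting interval, which covers counting error only. Levels compared between genes are the authors' FPKM, which are per length.

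Markers of heart muscle were present in both libraries, and so were markers of other tissues. Summed CPM of the 11 cardiac sarcomere markers was 29229 in the foxc1a nju18 library and 10237 in the wild-type library. Of the 11, 7 were higher by 2-fold or more and 0 were lower. The largest difference was that of myh7 (6535 CPM in foxc1a nju18, 621 CPM in wild type). After it came tnnt2a (ratio 4.47), ttn.2 (3.72), tnni1b (3.12) and actc1b (3.03). The 4 of the 11 not past the rule were within 2-fold, with myl7 at a ratio of 1.68 and myh6 at 1.67. Which of these genes are also expressed in skeletal muscle was not tested. Skeletal muscle markers were higher by 2-fold or more in 13 of 15 and lower in 0 (summed CPM 11250 in foxc1a nju18, 2860 in wild type), and mylpfa was at 4 reads in foxc1a nju18 and 0 in wild type. Red cell markers went the other way, with 6 of 11 lower and 0 higher (1032 CPM in foxc1a nju18, 2733 CPM in wild type). Neuron and retina markers were lower in 10 of 13 and higher in 0 (377 CPM in foxc1a nju18, 1935 CPM in wild type). Liver and gut markers were higher in 5 of 10 and lower in 1 (1131 CPM in foxc1a nju18, 468 CPM in wild type). Among the markers of tissues outside the heart, rho had 73.0 CPM in foxc1a nju18 and 606 CPM in wild type. The skeletal muscle gene mylpfb had 571 CPM in foxc1a nju18 and 76.6 CPM in wild type. How much tissue from outside the heart each library held was not tested, nor was the part these differences have in the carrier values. Unequal dissection, fewer cells of a type and less RNA per cell cannot be told apart in bulk hearts.

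The family was dominated by one ADP/ATP carrier and otherwise covered a wide range of levels. Its reads made up 1.01% of the foxc1a nju18 library and 0.849% of the wild-type library. slc25a5 alone held 71.8% of the family's reads in foxc1a nju18 and 67.6% in wild type. Without slc25a5 the family took 0.283% of reads in foxc1a nju18 and 0.275% in wild type, so most of the difference in the family's share lay in that gene. The median member stood at 3.14 FPKM in foxc1a nju18 and 3.84 FPKM in wild type. In the foxc1a nju18 library 5 members were at 100 FPKM or more, 10 between 10 and 100, 29 between 1 and 10, and 17 below 1. In the wild-type library these numbers were 4, 10, 35 and 12. FPKM follow total counts and not the TMM factors, so the medians and numbers of each library are not a comparison between libraries.

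**Figure D1:**
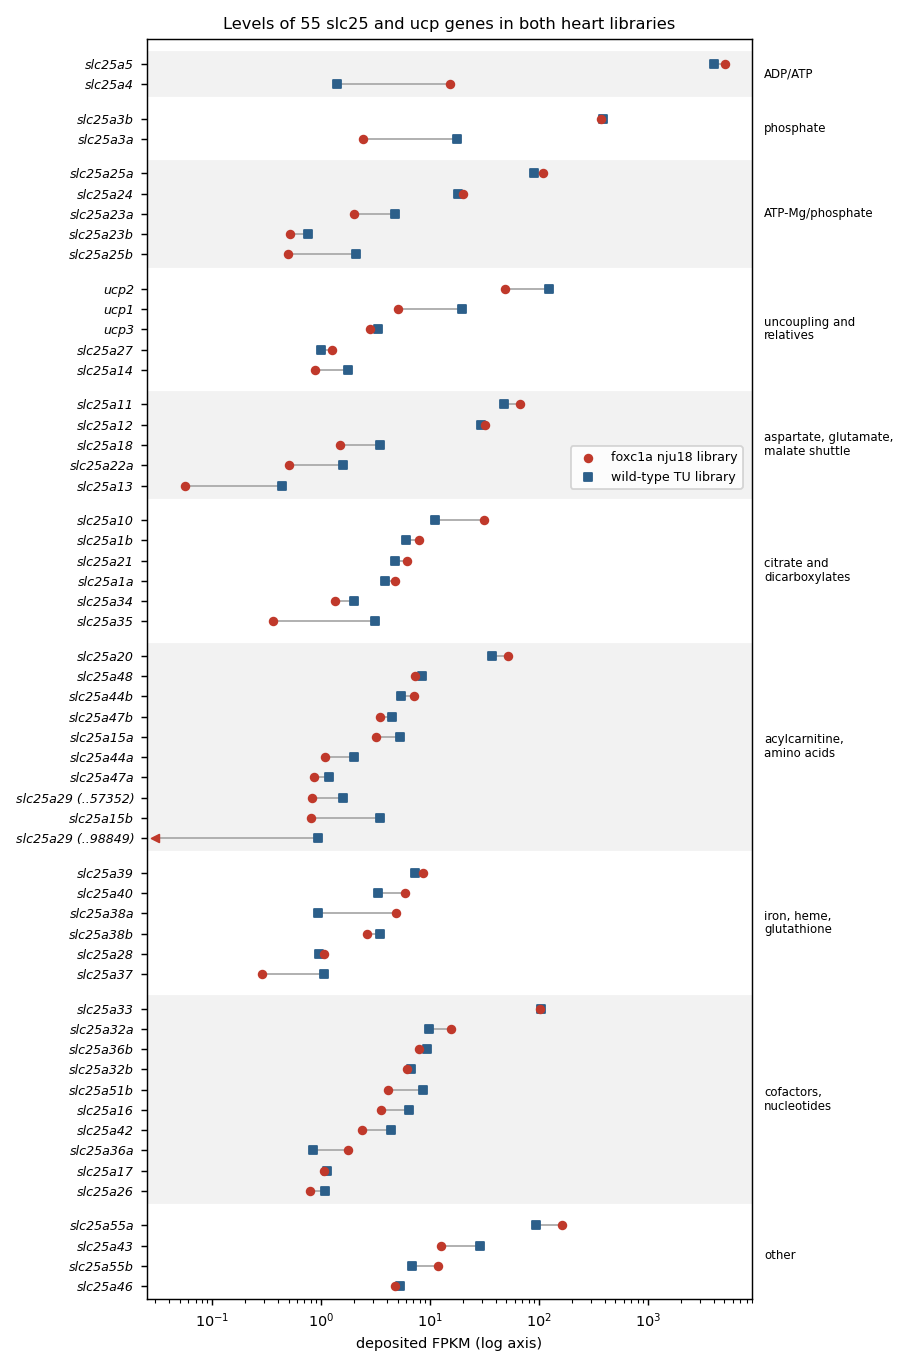
Deposited FPKM (log axis) of 55 detected carrier genes, grouped by what they carry; circles are the foxc1a nju18 library and squares the wild-type library, 1 library each, and the left-pointing triangle marks a slc25a29 gene listed at 0. slc25a5 stands at 5107 FPKM in foxc1a nju18 and 4057 FPKM in wild type, far above every other member, and the widest gaps between libraries are at low and middle levels.

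Of the family, 40 members were at 5 CPM or more in at least one library and entered the size rule, which asks for a 2-fold ratio on the log2 scale with 1 CPM added to each library. Of these, 7 were at least 2-fold higher in foxc1a nju18 (17.5%) and 4 were at least 2-fold lower (10%), against 9.61% higher and 11.1% lower of all 12259 genes under the same rule. Together these are 27.5% of the measured members and 20.7% of all measured genes. Scaled by total counts instead, 3 members were higher and 8 lower, beside 5.69% and 17.6% of all genes. The higher members were slc25a4, slc25a38a, slc25a10, slc25a36a, slc25a55a, slc25a55b and slc25a40, and the lower ones slc25a3a, ucp1, slc25a15b and ucp2. Some passed the level filter only through the library in which they were high, which favours a difference. These were slc25a4, slc25a38a and slc25a36a among the higher members and slc25a3a and slc25a15b among the lower. Among the 33 members at 5 CPM or more in both libraries, 4 were higher and 2 lower, against 7.77% and 5.98% of 10054 genes.

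The median log2 ratio of the 40 measured members was 0.26, beside 0.04 over all measured genes, with quartiles at -0.49 and 0.69 beside -0.49 and 0.52. Over all 56 detected members the median was 0.06, beside -0.05 over all genes with 10 or more reads in either library. Total-count scaling lowers log2 ratios with nothing added by 0.29, and those with 1 CPM added by up to that amount. It put the measured members' median at -0.03, beside -0.26 over all genes under the same filter. Of the members, 26 were above 0 with TMM scaling but 19 with total counts. The 7 members whose sign depends on the scaling were slc25a3b, slc25a32b, slc25a33, slc25a36b, slc25a46, slc25a48 and ucp3. The counting interval lay wholly beyond 2-fold for 4 of the higher members and 3 of the lower ones, beside 7.37% and 8.38% of all measured genes.

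**Figure D2:**
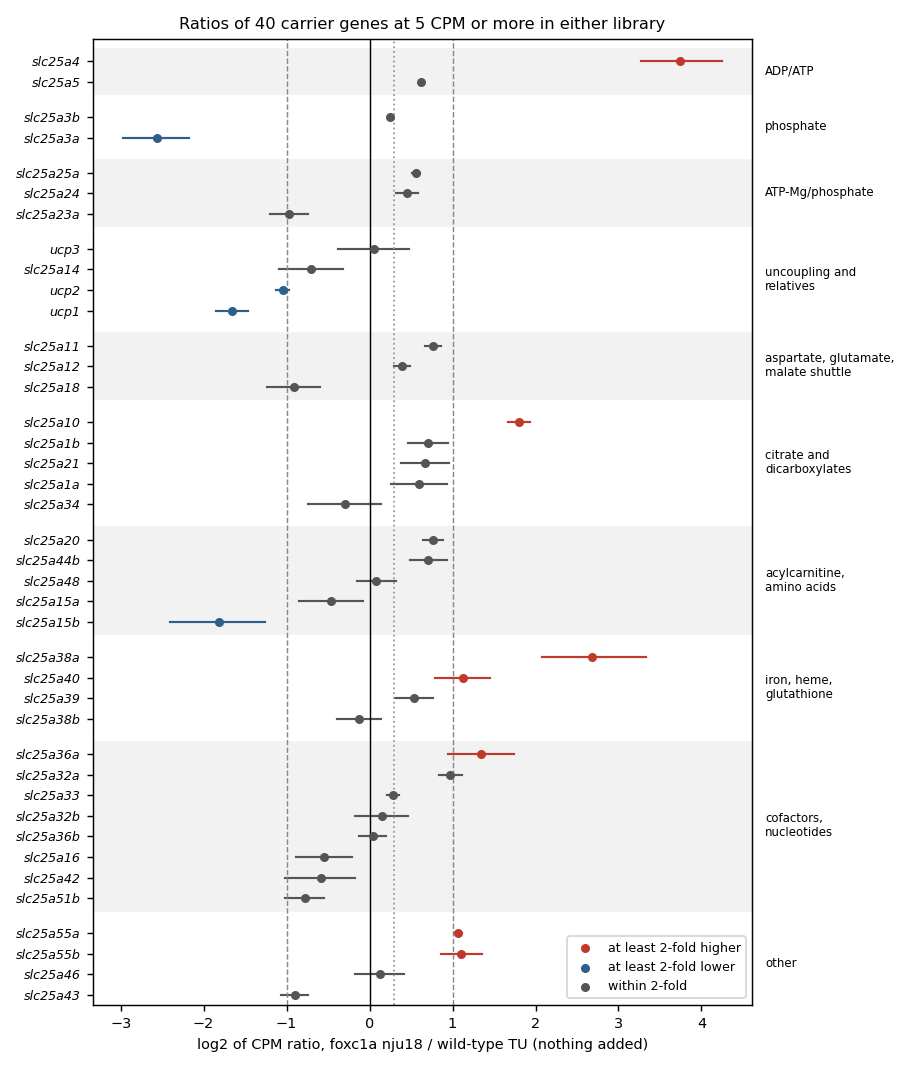
Log2 of the foxc1a nju18 over wild-type CPM ratio, nothing added, for the 40 members at 5 CPM or more in either library; bars are 95% counting intervals, dashed lines mark 2-fold, and the dotted line marks where 0 would lie with total-count scaling. Colours follow the rule with 1 CPM added; 29 members are within 2-fold, slc25a4 is the highest and slc25a3a the lowest.

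The ADP/ATP carriers, which pass ATP out of the matrix in exchange for ADP, were represented almost wholly by slc25a5. This gene ranked 11th of all genes by FPKM in the foxc1a nju18 library and 13th in the wild-type library, amid genes of the mitochondrial genome and ribosomal protein genes. It had 126230 reads (7993 CPM) in foxc1a nju18 and 115090 reads (5190 CPM) in wild type, a ratio of 1.54 (1.53 to 1.55), which is within 2-fold. It stood 13.7 times above the next member per length in foxc1a nju18 and 10.6 times in wild type, the phosphate carrier slc25a3b in both.

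slc25a4, the counterpart of the main ADP/ATP carrier of mammalian heart and skeletal muscle, showed the largest ratio of the 40 measured members. It had 381 reads (24.1 CPM) in foxc1a nju18 and 40 reads (1.80 CPM) in wild type, a ratio of 13.4 (9.64 to 19.0). Its level stayed low beside slc25a5 in both libraries, 15.2 FPKM in foxc1a nju18 and 1.39 FPKM in wild type. Of the reads on the 3 ADP/ATP carrier genes, slc25a4 held 0.301% (0.272 to 0.333) in foxc1a nju18 and 0.0347% (0.0248 to 0.0473) in wild type, a comparison that no scaling affects. These carriers are close in sequence, and the treatment of reads that fit several genes is not stated in the labels, which leaves a share this small uncertain. slc25a6 had 0 reads in foxc1a nju18 and 5 in wild type and counts as undetected. Beside the slc25a4 difference stand the skeletal muscle and cardiac sarcomere markers, which were also higher, with summed ratios of 3.93 and 2.86. Of the cardiac list, 7 of 11 passed 2-fold, myh7 and tnnt2a (4.47) among them. The 4 that did not included myl7 (1.68).

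The phosphate carrier genes, whose product brings in the phosphate for ATP synthesis, differed from each other. slc25a3b, the second most abundant member, had 953 CPM (372 FPKM) in foxc1a nju18 and 802 CPM (382 FPKM) in wild type, and its ratio of 1.19 (1.16 to 1.22) changes direction with total-count scaling. slc25a3a had 60 reads (3.80 CPM) in foxc1a nju18 and 497 reads (22.4 CPM) in wild type, a ratio of 0.170 (0.127 to 0.222). It was the lowest ratio among the measured members. Because slc25a3b is so abundant, the summed CPM of both was close between libraries, 957 in foxc1a nju18 and 824 in wild type.

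ATP-Mg/phosphate carriers adjust the adenine nucleotide pool of the matrix and are regulated by calcium. Of 3 measured members none was 2-fold apart. slc25a25a was the abundant one, at 383 CPM in foxc1a nju18 and 260 CPM in wild type, a ratio of 1.47 (1.42 to 1.53). slc25a24 had 54.4 CPM in foxc1a nju18 and 39.8 CPM in wild type. slc25a23a had 13.7 CPM in foxc1a nju18 and 26.9 CPM in wild type, a ratio of 0.510 (0.435 to 0.597) that falls just short of the rule. With total-count scaling slc25a23a was past 2-fold (log2 ratio -1.20). The other members with reads were too low for the rule: slc25a25b had 15 reads in foxc1a nju18 and 73 in wild type, and slc25a23b had 13 in foxc1a nju18 and 22 in wild type. slc25a24l had no read in either library, which at these depths allows up to 0.190 CPM in foxc1a nju18 and 0.135 CPM in wild type (3 reads).

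The uncoupling proteins were lower in the foxc1a nju18 library, apart from ucp3. ucp2, the widely expressed member in mammals, was the most abundant, with 2026 reads (128 CPM) in foxc1a nju18 and 5889 reads (266 CPM) in wild type, a ratio of 0.483 (0.459 to 0.508). ucp1, known in mammals for heat production in brown fat, had 274 reads (17.3 CPM) in foxc1a nju18 and 1217 reads (54.9 CPM) in wild type, a ratio of 0.316 (0.276 to 0.361). ucp3, a muscle gene in mammals, had 5.19 CPM in foxc1a nju18 and 5.01 CPM in wild type, a ratio of 1.04 (0.770 to 1.39). Thus ucp1 and ucp2 were lower and the interval of ucp3 included 1.

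The order of the uncoupling protein genes by FPKM was ucp2, ucp1, ucp3 in both libraries. Within the reads of these genes, ucp1 held 11.5% (10.2 to 12.9) in foxc1a nju18 and 16.9% (16.01 to 17.7) in wild type, while ucp2 held 85.1% in foxc1a nju18 and 81.6% in wild type. Their relatives, named in mammals for expression in brain, were low: slc25a14 had 5.26 CPM in foxc1a nju18 and 8.57 CPM in wild type, and slc25a27 had 32 reads in foxc1a nju18 and 29 in wild type. The summed CPM of these 5 genes was 158 in foxc1a nju18 and 335 in wild type, a ratio of 0.472. It was the only one of the 10 substrate groups whose sum was lower in foxc1a nju18, under TMM scaling; with total counts the phosphate and cofactor groups were lower too. Red cell markers and neuron and retina markers were lower in the same library, with summed ratios of 0.378 and 0.195. The cardiac, skeletal muscle and liver and gut lists went the other way, with 2.86, 3.93 and 2.42. Any link between these marker lists and the uncoupling protein values was not tested.

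**Figure D3:**
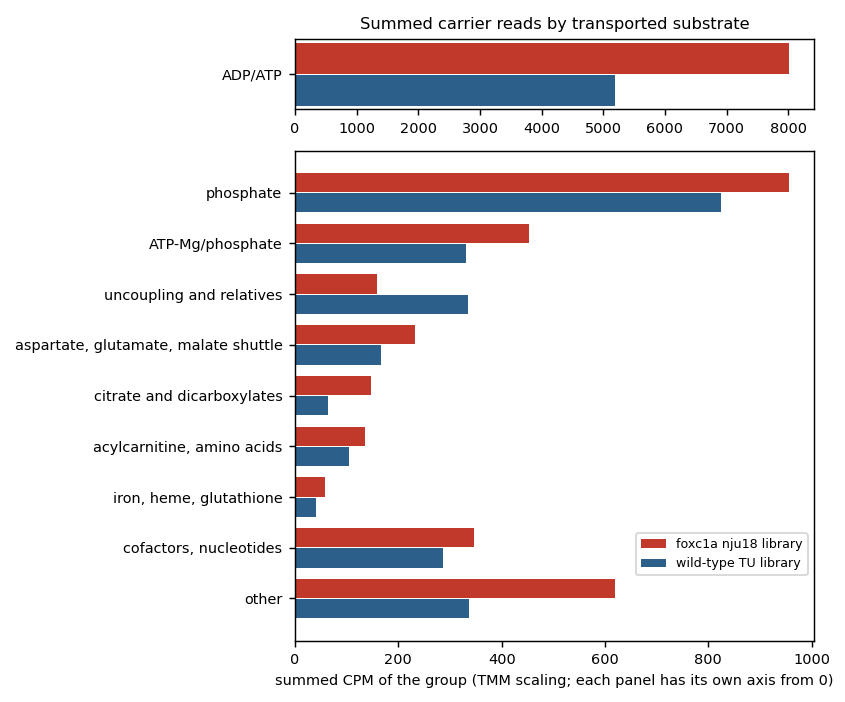
Summed CPM (TMM scaling) of carrier genes by what they carry, foxc1a nju18 above wild type in each pair of bars, 1 library each; the ADP/ATP carriers have their own axis. The uncoupling proteins and relatives stand at 158 in foxc1a nju18 and 335 in wild type, and the citrate and dicarboxylate carriers at 148 in foxc1a nju18 and 63.9 in wild type.

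The malate-aspartate shuttle carries reducing equivalents from the cytosol into the matrix by means of an oxoglutarate carrier and an aspartate/glutamate carrier. Both of its main genes were within 2-fold. slc25a11, the oxoglutarate/malate carrier, had 122 CPM in foxc1a nju18 and 72.2 CPM in wild type, a ratio of 1.70 (1.59 to 1.81). slc25a12, the calcium-regulated aspartate/glutamate carrier, had 100.2 CPM in foxc1a nju18 and 76.4 CPM in wild type, a ratio of 1.31 (1.22 to 1.41). slc25a13, the aspartate/glutamate carrier of mammalian liver, was near the detection limit with 2 reads in foxc1a nju18 and 18 in wild type. Of the glutamate carriers, slc25a18 had 7.28 CPM in foxc1a nju18 and 13.7 CPM in wild type, and slc25a22a had 13 reads in foxc1a nju18 and 47 in wild type. slc25a22b, with 6 reads in foxc1a nju18 and 4 in wild type, was undetected.

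Among carriers of citrate and dicarboxylates, slc25a10 stood out by its ratio. It encodes the dicarboxylate carrier, which exchanges malate or succinate for phosphate, and had 1577 reads (99.9 CPM) in foxc1a nju18 and 636 reads (28.7 CPM) in wild type, a ratio of 3.48 (3.17 to 3.82). The citrate carriers slc25a1a (10 CPM in foxc1a nju18, 6.63 CPM in wild type) and slc25a1b (19.6 CPM in foxc1a nju18, 12.04 CPM in wild type) and the oxoadipate carrier slc25a21 (13.2 CPM in foxc1a nju18, 8.34 CPM in wild type) had ratios of 1.51 to 1.63. They therefore lay above 1 but within 2-fold. slc25a34 had 4.43 CPM in foxc1a nju18 and 5.46 CPM in wild type, and slc25a35, below the level filter, had 6 reads in foxc1a nju18 and 60 in wild type.

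slc25a20, which takes acylcarnitines into the matrix for fatty acid oxidation, was the leading member of the acylcarnitine and amino acid group. It had 79.1 CPM (51.3 FPKM) in foxc1a nju18 and 46.7 CPM (37.1 FPKM) in wild type, a ratio of 1.69 (1.56 to 1.84). slc25a44b, related to a mammalian carrier of branched-chain amino acids, had 22.4 CPM in foxc1a nju18 and 13.7 CPM in wild type, a ratio of 1.64 (1.40 to 1.91). The ornithine carrier gene slc25a15b was lower, with 32 reads (2.03 CPM) in foxc1a nju18 and 158 reads (7.12 CPM) in wild type, a ratio of 0.284 (0.188 to 0.418) that is under 2-fold with 5 CPM added (log2 ratio -0.79). Its copy slc25a15a had 5.57 CPM in foxc1a nju18 and 7.67 CPM in wild type, a ratio of 0.727 (0.555 to 0.946), and slc25a48 had 16.8 CPM in foxc1a nju18 and 15.9 CPM in wild type.

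The remaining members of that group were below the level filter. Of the 2 genes called slc25a29, whose mammalian counterpart carries basic amino acids, one (ENSDARG00000057352) had 28 reads in foxc1a nju18 and 62 in wild type. The other (ENSDARG00000098849) had 0 reads in foxc1a nju18 and 17 in wild type. The counting interval of its ratio reached up to 0.340, that is 2.94-fold lower in foxc1a nju18. slc25a47a, whose counterpart is a liver gene in mammals, had 58 reads in foxc1a nju18 and 92 in wild type, and its copy slc25a47b had 42 in foxc1a nju18 and 63 in wild type, both with counting intervals that included 1. slc25a44a had 25 reads in foxc1a nju18 and 53 in wild type, and slc25a45, with 8 in each, was the undetected member closest to the limit of 10 reads.

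Carriers linked to iron, heme and glutathione went both ways. slc25a38a, a copy of the erythroid carrier that brings glycine into the matrix for heme synthesis, had 128 reads (8.10 CPM) in foxc1a nju18 and 28 reads (1.26 CPM) in wild type, a ratio of 6.42 (4.24 to 10.04). Its copy slc25a38b had 12.3 CPM in foxc1a nju18 and 13.4 CPM in wild type, a ratio of 0.917 (0.761 to 1.103). slc25a37, mitoferrin 1, which supplies iron to the mitochondria of developing red cells in zebrafish, was low: 13 reads in foxc1a nju18 and 55 in wild type, a ratio of 0.332 (0.166 to 0.615). slc25a28, mitoferrin 2, had 63 reads in foxc1a nju18 and 65 in wild type. Thus slc25a37 was on the same side as the median of the measured red cell markers (log2 ratio -1.08), and slc25a38a on the other. Not every red cell marker was lower. sptb had a ratio of 1.69 (1.58 to 1.81). alas2, below the level filter, had 28 reads in foxc1a nju18 and 14 in wild type, a ratio of 2.81 (1.43 to 5.77). The glutathione carrier genes slc25a39 (21.1 CPM in foxc1a nju18, 14.6 CPM in wild type) and slc25a40 (12.5 CPM in foxc1a nju18, 5.73 CPM in wild type) had ratios of 1.45 (1.24 to 1.69) and 2.18 (1.73 to 2.74), the second at the edge of the size rule with a log2 ratio of 1.002, and under 2-fold with total-count scaling (0.74).

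Carriers of nucleotides and cofactors were mostly within 2-fold. slc25a33, a pyrimidine nucleotide carrier, was the most abundant, with 193 CPM in foxc1a nju18 and 159 CPM in wild type (103 FPKM in each). The related slc25a36a had 153 reads (9.69 CPM) in foxc1a nju18 and 85 reads (3.83 CPM) in wild type, a ratio of 2.53 (1.93 to 3.33), whereas slc25a36b had 34.8 CPM in foxc1a nju18 and 34.0 CPM in wild type. The log2 ratio of slc25a36a was under 2-fold with total-count scaling (0.90), FPKM (0.57) and 5 CPM added (0.73). slc25a32a, a folate carrier by its annotation, lay just inside 2-fold with 65.0 CPM in foxc1a nju18 and 33.1 CPM in wild type, a ratio of 1.96 (1.78 to 2.16).

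Lower ratios in that group belonged to slc25a51b, related to the mammalian NAD carrier, and to slc25a16 and slc25a42, the second a coenzyme A carrier. slc25a51b had 13.04 CPM in foxc1a nju18 and 22.4 CPM in wild type, a ratio of 0.582 (0.492 to 0.686), and slc25a42 had 4.43 CPM in foxc1a nju18 and 6.67 CPM in wild type. slc25a16 had 6.97 CPM in foxc1a nju18 and 10.2 CPM in wild type. slc25a32b, the copy of the folate carrier, was close between libraries at 9.12 CPM in foxc1a nju18 and 8.25 CPM in wild type. The carrier of S-adenosylmethionine (slc25a26, 22 reads in foxc1a nju18, 35 in wild type) and the peroxisomal slc25a17 (64 reads in foxc1a nju18, 78 in wild type) were below the filter, and their intervals included 1. slc25a51a, with 2 reads in foxc1a nju18 and 6 in wild type, was undetected.

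Of the members with no assigned substrate here, slc25a55a was the third most abundant of the family by FPKM in the foxc1a nju18 library. It had 562 CPM in foxc1a nju18 and 268 CPM in wild type, a ratio of 2.10 (2.03 to 2.17). slc25a55b had 21.8 CPM in foxc1a nju18 and 10.1 CPM in wild type, a ratio of 2.15 (1.81 to 2.55). Both copies therefore stood on the same side and by nearly the same ratio, and with total-count scaling both were under 2-fold (log2 ratios of 0.77 and 0.76). slc25a43 had 26.0 CPM in foxc1a nju18 and 48.6 CPM in wild type, a ratio of 0.535 (0.476 to 0.600). slc25a46, which acts at the outer membrane in mitochondrial shape, had 10.7 CPM in foxc1a nju18 and 9.83 CPM in wild type.

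Of the 16 detected members below 5 CPM in both libraries, 12 had a ratio below 1 and 4 above, beside 60.3% below 1 among all 7537 genes at such levels. The interval lay wholly below 1 for 6 of them and wholly above 1 for 0, beside 33.1% and 19.2% of those genes. A lean to lower values was thus also seen over all genes at such levels. The limit of 10 reads is 0.633 CPM in foxc1a nju18 but 0.451 CPM in wild type, which by itself favours ratios below 1. How much of the lean comes from this was not tested. At high levels the picture was mixed: of 6 members at 100 FPKM or more in either library, slc25a55a was 2-fold higher, ucp2 was 2-fold lower, and slc25a5, slc25a3b, slc25a25a and slc25a33 were within 2-fold.

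Zebrafish keep many carriers as copies named a and b, and the division of reads within a pair does not depend on the scaling between libraries. Of 13 such pairs, 12 had 50 or more reads in each library, and the slc25a22 pair did not. The a copy's share was higher in foxc1a nju18 for 5 pairs and lower for 2 with counting intervals that did not overlap, and the intervals overlapped for 5. Across 2234 pairs of genes whose symbols differ in a final a or b, 48.8% had intervals apart, so a share of that size is common between these libraries.

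The pair with the widest gap in shares was slc25a38. Its a copy held 39.8% (34.4 to 45.3) of the pair's reads in foxc1a nju18 and 8.62% (5.80 to 12.2) in wild type. slc25a15a held 73.3% (64.5 to 81.0) in foxc1a nju18 and 51.8% (46.3 to 57.4) in wild type, and slc25a36a held 21.8% (18.8 to 25.0) in foxc1a nju18 and 10.1% (8.18 to 12.4) in wild type. Of these a copies, only slc25a15a held most of its pair's reads in foxc1a nju18. By FPKM, which is per length, slc25a38a held 65.2% of its pair in foxc1a nju18 and 21.1% in wild type. In all of these pairs the a copy's share of reads was larger in foxc1a nju18 than in wild type. In the other direction, slc25a3a held 0.397% (0.303 to 0.511) in foxc1a nju18 and 2.72% (2.49 to 2.97) in wild type. slc25a44a held 6.60% (4.31 to 9.58) in foxc1a nju18 and 14.8% (11.3 to 19.0) in wild type. The treatment of reads that fit both copies is not stated, which leaves a share as small as that of slc25a3a uncertain. The slc25a55 pair was divided alike, with 96.3% (95.9 to 96.6) on the a copy in foxc1a nju18 and 96.4% (95.9 to 96.8) in wild type.

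**Figure D4:**
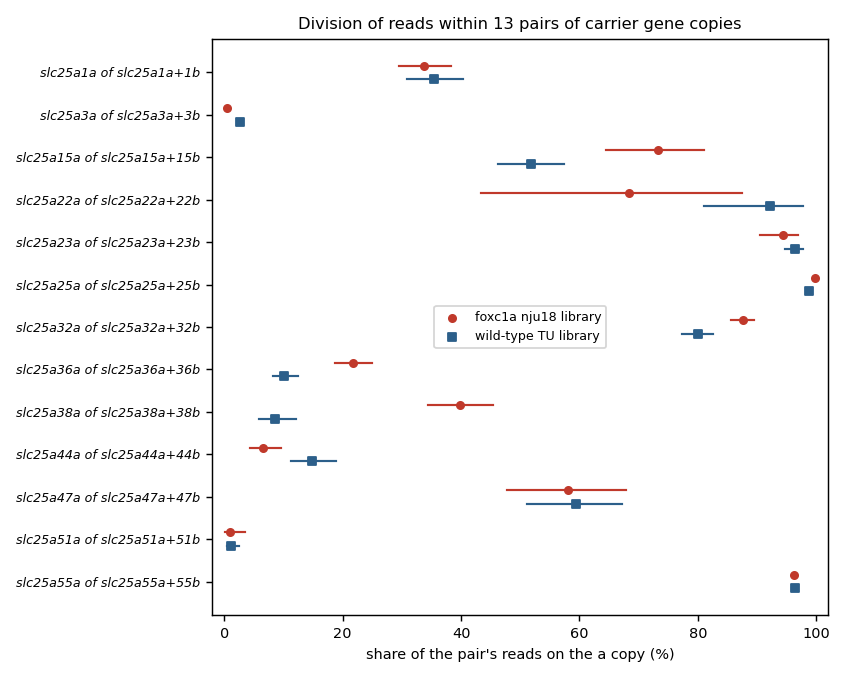
Share of each pair's reads that fell on the a copy (%), with 95% counting intervals; circles are the foxc1a nju18 library, drawn above the squares of the wild-type library, 1 library each. The slc25a38 pair shows the widest gap, 39.8% in foxc1a nju18 and 8.62% in wild type, and the slc25a55 pair none that can be seen.

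Other genes of mitochondria and of their regulation were described from lists of names. Over all measured genes 9.61% were 2-fold higher and 11.1% lower, with a median log2 ratio of 0.04. In lists as short as those below, such shares amount to few genes. Carriers are guided through the outer membrane by tomm proteins and into the inner membrane by small timm chaperones and timm22. Of 14 measured genes for this import, none was 2-fold apart in either direction (median log2 ratio 0.24). Among 19 measured genes of other mitochondrial transporters and channels, log2 ratios ran from -0.77 to 1.11 with a median of 0.62. Of these, 2 passed 2-fold, both higher. They were mpc1, a subunit of the pyruvate carrier (144 CPM in foxc1a nju18, 66.0 CPM in wild type), and micu2, a regulator of the calcium uniporter (138 CPM in foxc1a nju18, 67.6 CPM in wild type). With total-count scaling both were under 2-fold. mpc1 then had 130 CPM in foxc1a nju18 and 73.0 CPM in wild type, and micu2 had 125 CPM and 74.8 CPM. The outer membrane channel gene vdac2 had 1689 CPM in foxc1a nju18 and 921 CPM in wild type. Of 10 measured regulators of mitochondrial biogenesis, none was 2-fold apart. Their median log2 ratio was 0.02, with a range from -0.70 (gabpa) to 0.92 (tfb2m). ppargc1a, the coactivator known as PGC-1alpha, had 8.74 CPM in foxc1a nju18 and 8.21 CPM in wild type.

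The authors' deposited table called 8 of the 60 members it holds, 3 higher and 5 lower, beside 4.24% higher and 7.63% lower of its 23256 genes. The higher calls of the authors' deposited table were slc25a4 (log2 fold change 3.71, FDR 1.11e-11), slc25a38a (2.65, FDR 1.80e-05) and slc25a10 (1.76, FDR 0.00813). The lower calls of the authors' deposited table were slc25a3a (-2.60, FDR 2.13e-05), slc25a35 (-2.87, FDR 0.00116), the slc25a29 gene with 0 reads in foxc1a nju18 (FDR 0.00336), slc25a15b (-1.85, FDR 0.0164) and ucp1 (-1.70, FDR 0.0253). Of these 8, 6 were also past the 2-fold rule here, and slc25a35 and slc25a29 were below its level filter. The authors' deposited table did not call ucp2 (-1.09, FDR 0.723), slc25a55a (1.03, FDR 0.810), slc25a36a (1.30, FDR 0.187), slc25a40 (1.09, FDR 0.422) or slc25a55b (1.07, FDR 0.472), and its FDR rests on 1 library per genotype.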

How the data were processed

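Dissected hearts were sequenced as 1 library per genotype, grouped by the genotype label. HISAT2, featureCounts, Trimmomatic, bcl2fastq and the build GRCz11 are named in the submitters' processing notes; versions, strand and the handling of reads with several matches are not stated there. The authors deposited raw counts by Ensembl gene, FPKM, and a table named for EBSeq. Per the file headers that table holds a normalised signal per library, a ratio (fold change), its log2 and an FDR, used as a q-value would be. FPKM equalled the count over the library total and 1 length per gene (21662 of 21662 genes with reads in both libraries, within 0.5 bases), and the signal equalled the count over a size factor (0.854 for foxc1a nju18, 1.17 for wild type).

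Counts were scaled with TMM factors of 0.904 (foxc1a nju18) and 1.11 (wild type) with edgeR 4.0.16 (R 4.3.3). For log2 ratios 1 CPM was added, a gene was measured if either library reached 5 CPM, and a 2-fold rule stood in place of a test. Ratio intervals are exact (Clopper-Pearson) at 95% from the conditional binomial of reads (Python 3.11.15, scipy 1.17.1). They cover counting error only, since 1 library per genotype gives no spread between animals. Where PCR copies of a molecule were counted as separate reads, the intervals are too narrow even for counting error. Values were printed for members past the rule, the most abundant ones, all ADP/ATP carriers and uncoupling proteins, and those next to the 10-read limit; the rest are given more briefly. Roles and lists were fixed by name. The members and lists were chosen with earlier results of these data known. Alternatives used size factors from DESeq2 1.42.0, total counts, totals without genes over 1%, FPKM, other amounts added, other level filters and 1.5-fold and 4-fold rules; the scripts were tested on simulated data. No sequences were used here, and 1 member is counted but not reported here by its values.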

Additional observations from a re-analysis of the deposited data

How the results depend on the processing

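With DESeq2 size factors or 0.25 CPM added, the counts of 7 higher and 4 lower members held, and the median log2 ratio stayed within 0.01 of 0.26. Of all genes, 9.79% were higher and 10.9% lower with DESeq2 size factors, and 10.8% and 12.5% with 0.25 CPM added. Total-count scaling gave 3 higher and 8 lower of 40 members with a median of -0.026, beside 5.69%, 17.6% and -0.26 over all genes. Among those 8 were slc25a23a (-1.20), slc25a43 (-1.16), slc25a18 (-1.09) and slc25a51b (-1.01), which were within 2-fold with TMM scaling. The total without genes over 1% gave 3, 7 and -0.017 from 41 members, beside 6.05%, 17.5% and -0.24. The deposited FPKM with 1 FPKM added gave 3, 7 and -0.14, beside 4.46%, 13.9% and -0.25. That setting took in 53 members at 1 FPKM or more in either library. With 5 CPM added 4 of 40 were higher and 3 lower, beside 5.87% and 5.39% of all genes. With 20 CPM required in either library 4 of 22 were higher and 3 lower, beside 10.52% and 7.69% of all genes. The median at 20 CPM was 0.47, beside 0.11 over all genes. With only 10 reads required 7 of 56 were higher and 6 lower, beside 7.54% and 10.65% of all genes. The median at 10 reads was 0.060, beside -0.045 over all genes. The mean in place of the median was 0.19, beside 0.001 over all genes. The 1.5-fold rule gave 14 higher and 9 lower of 40, beside 22.3% and 21.5% of all genes. The 4-fold rule gave 2 and 1, beside 1.45% and 2.08%. Requiring 5 CPM in both libraries, added after seeing the data, gave 4 and 2 from fewer members (33), beside 7.77% and 5.98%. A mean of 5 CPM over both libraries gave 6 and 3 from 37 members, beside 9.22% and 9.16%.

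Of the 11 members past 2-fold, 6 stayed past it in the same direction under all 7 settings of scaling, unit and amount added: slc25a4, slc25a10, slc25a38a, slc25a3a, ucp1 and ucp2. slc25a15b lost it with 5 CPM added (-0.79), and slc25a36a (lowest 0.57), slc25a40 (0.68), slc25a55a (0.77) and slc25a55b (0.73) lost it with total counts, the total without genes over 1% and FPKM, and all of these but slc25a55a also with 5 CPM added; no member past 2-fold changed sign. The cause of these shifts beyond the scaling itself was not tested. All 7 settings reuse the same libraries, so they do not replicate a difference, and the level filter was not varied among them. Of the 6 that stayed, slc25a4, slc25a38a and slc25a3a passed that filter only through the library in which they were high. No paired analysis was possible because each genotype had 1 library. Depth limits the 16 low members, where 10 reads are 0.633 CPM in foxc1a nju18 and 0.451 CPM in wild type.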
